A study of Mus musculus with 12 samples.

Results

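The clustered protocadherin genes of the mouse were followed in acute hippocampal slices. Members were all genes whose symbol begins with Pcdha, Pcdhb or Pcdhg and stands alone on a transcript cluster, the unit in which the array reports a signal. Of 22180 genes with a symbol of their own, 23 met this rule. They were the 22 Pcdhb genes (Pcdhb1 to Pcdhb22), 1 Pcdhg gene (Pcdhga10) and 0 Pcdha genes.

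The tested mice were heterozygous for a conditional floxed D61Y allele of Ptpn11, which encodes the phosphatase SHP2, and for Emx1IREScre, which confines recombination to forebrain excitatory neurons and astrocytes. They are called Ptpn11D61Y. The sources differ on the control mice. The sample labels give them the conditional allele and no Emx1IREScre, whereas the paper's account of the breeding gives them wild-type Ptpn11 and Emx1IREScre. Slices 350 µm thick came from mice aged 8 to 11 weeks and received DMSO alone (basal, B) or 2.5 mM 4AP with 50 µM bicuculline in DMSO (stimulated, S), each for 10 min, followed by 3 h in drug-free solution. 4AP blocks potassium channels and bicuculline blocks GABAA receptors, and together they raise network activity. Each of the 4 groups, Ptpn11D61Y S, Ptpn11D61Y B, control S and control B, holds 3 arrays, and the labels number the slices of each group by animal, 1 to 3. B and S slices that share a number within a genotype were taken as the same animal, which makes 6 animals.

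Clustered protocadherins are cadherin-like adhesion proteins of the neuronal surface. Their genes lie in tandem in the alpha, beta and gamma clusters, and a neuron expresses a small set of them, chosen largely at random at promoters that CTCF and cohesin bring to distant enhancers. The proteins recognise identical copies on other membranes, which lets the branches of a neuron avoid each other, and the gamma genes are also needed for the survival of many interneurons. In a bulk slice the signal of a member is therefore a sum over many neurons that express it and many that do not, and fewer expressing cells and less RNA per cell cannot be told apart.

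The platform covered the 3 clusters unevenly. RefSeq lists 14 alpha, 22 beta and 22 gamma genes. All 22 beta genes had a transcript cluster of their own. Of the alpha genes, 9 were named only on a transcript cluster shared with others and 5 on none, and of the gamma genes 1 stood alone, 9 were only on shared ones and 12 on none. The C-type isoforms Pcdhac1, Pcdhac2, Pcdhgc3, Pcdhgc4 and Pcdhgc5, which unlike the others are expressed broadly rather than by random choice, had no transcript cluster of their own, so no value is given for them. A comparison of the alpha, beta and gamma clusters thus comes down to 22 beta genes and Pcdhga10.

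The shared transcript clusters were not read as levels of alpha or gamma genes. In the order of the platform's identifiers each chromosome forms a first and a second run, and over 19 chromosomes 96.9% of 8855 genes of the first run lie on the plus strand and 96.3% of 8796 genes of the second on the minus strand. The strand was not checked in this way on the chromosome of the protocadherin genes itself. All 22 beta genes fell in the first run of that chromosome, whereas the transcript cluster with 9 alpha symbols and that with 9 gamma symbols fell in the second, with the neighbouring genes Slc25a2, Taf7, Diaph1 and Hdac3. Whether their probes read the protocadherin strand was not tested, since the probes' strand is not given in the sources used here. The shared alpha transcript cluster had log2 signals of 5.72 ± 0.09 in Ptpn11D61Y S, 5.72 ± 0.27 in Ptpn11D61Y B, 5.27 ± 0.27 in control S and 5.74 ± 0.25 in control B (SD, n = 3 each). Its lowest group was control S, and it did not pass the study's filter in any of the 5 comparisons. The transcript cluster with 9 gamma symbols averaged 4.78 in Ptpn11D61Y S, 4.86 in Ptpn11D61Y B, 4.76 in control S and 4.82 in control B on the log2 scale. Another, which carries Pcdhga10 with 1 other symbol and lies outside both runs, averaged 9.62 in Ptpn11D61Y S, 9.53 in Ptpn11D61Y B, 9.81 in control S and 9.46 in control B, and neither passed the filter in any comparison.

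Arrays numbered 1 stood apart from the rest. Over all transcript clusters, arrays numbered 2 or 3 correlated with each other at 0.94 to 0.97, and those numbered 1 with these at 0.87 to 0.92. The median intensity of an array ran from 36.5 to 58.1 in the deposited values. Control S replicate 1 held the lowest, and the median over all transcript clusters lay 0.32 below their own means there on the log2 scale. The log2 difference of Ptpn11 itself was -0.09 ± 0.20 (standard error) in Ptpn11D61Y B vs. control B, and the array does not read the D61Y codon. No transcript cluster passed an adjusted p of 0.05 in any comparison by limma (0% called). Limma on the 6 arrays compared also called 0. At an unadjusted p under 0.05 the fit on 12 arrays gave 525 in Ptpn11D61Y S vs. Ptpn11D61Y B, 1468 in control S vs. control B, 810 in Ptpn11D61Y S vs. control S, 610 in Ptpn11D61Y B vs. control B and 482 for the interaction. Each count was a smaller share of the 41345 transcript clusters than the 0.05 that would be reached if nothing differed. The counts are therefore not read as signal. An exact test of 3 arrays against 3 cannot go below 0.1, two-sided, so none is given for single genes. Results are therefore given with the study's filter, a fold change of at least 1.5 in either direction with an unadjusted p under 0.05. The main ones are given with and without the arrays numbered 1.

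The beta genes differed widely in signal. Pcdhb6 had the highest mean of the beta genes over the 12 arrays, a log2 signal of 7.50, and Pcdhb9 the lowest, 3.51. The median over the 22 genes was 4.97, against 5.51 over all transcript clusters. A mean log2 signal of at least 5 was reached by 11 beta genes and missed by the other 11, and 38.74% of all transcript clusters lay below that level. Probes differ in brightness, so these values do not rank the amounts of RNA. The beta genes are also closely related copies, and the extent to which a probe reads a neighbouring copy was not tested.

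**Figure D1:**
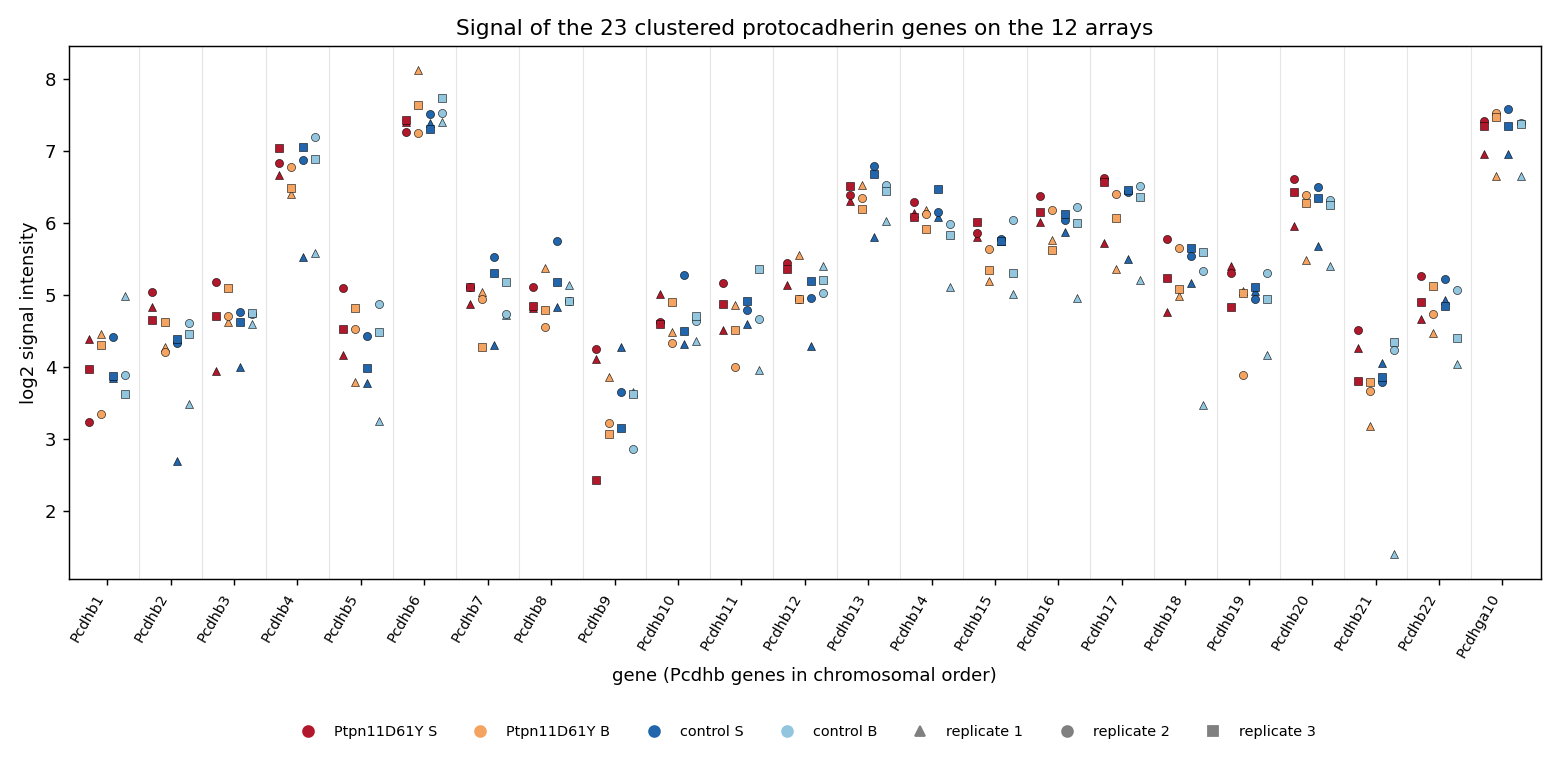
Log2 signal intensity (y axis) of the 23 clustered protocadherin genes (x axis), with 1 point for each of the 12 arrays, coloured by group and shaped by replicate number. Pcdhb6 lies highest of the beta genes and Pcdhb9 lowest on average, and the lowest single value, 1.39, is that of Pcdhb21 on control B replicate 1.

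Pcdhb6 had log2 signals of 7.40, 7.26 and 7.43 in Ptpn11D61Y S, 8.13, 7.25 and 7.64 in Ptpn11D61Y B, 7.40, 7.51 and 7.30 in control S and 7.41, 7.53 and 7.74 in control B. Ptpn11D61Y B replicate 1 lay above the other arrays, and all groups overlapped. Its pooled SD within groups, 0.25, was the smallest among the beta genes. The largest, 0.88, was that of Pcdhb21, whose value on control B replicate 1 was 1.39 while the other 11 arrays lay between 3.17 and 4.51.

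Pcdhb9 had log2 signals of 4.10, 4.25 and 2.43 in Ptpn11D61Y S, 3.85, 3.21 and 3.06 in Ptpn11D61Y B, 4.28, 3.65 and 3.14 in control S and 3.66, 2.85 and 3.61 in control B. The spread within Ptpn11D61Y S alone was nearly as wide as that over all groups. Pcdhga10, the only gamma gene, had 6.96, 7.42 and 7.35 in Ptpn11D61Y S, 6.65, 7.53 and 7.47 in Ptpn11D61Y B, 6.96, 7.59 and 7.34 in control S and 6.66, 7.39 and 7.38 in control B. In every group its lowest value was that of the array numbered 1.

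The lowest values of the beta genes lay mostly on the control arrays numbered 1. Of the 22 beta genes, 1 had its lowest value on Ptpn11D61Y S replicate 1, 0 on Ptpn11D61Y B replicate 1, 5 on control S replicate 1 and 10 on control B replicate 1. Together these are 16 genes, against 64.68% of all transcript clusters with their lowest value on an array numbered 1. Control B replicate 1 alone held the lowest value of 10 beta genes, against 16.01% of all transcript clusters, and the median beta gene lay 0.73 below its own mean there on the log2 scale, although the median over all transcript clusters lay 0.06 above. Ptpn11D61Y S replicate 2 was the opposite case, with the highest value of 9 beta genes and a median deviation of 0.41. These 2 arrays lie in groups that are compared below, and what sets them apart was not tested.

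**Figure D2:**
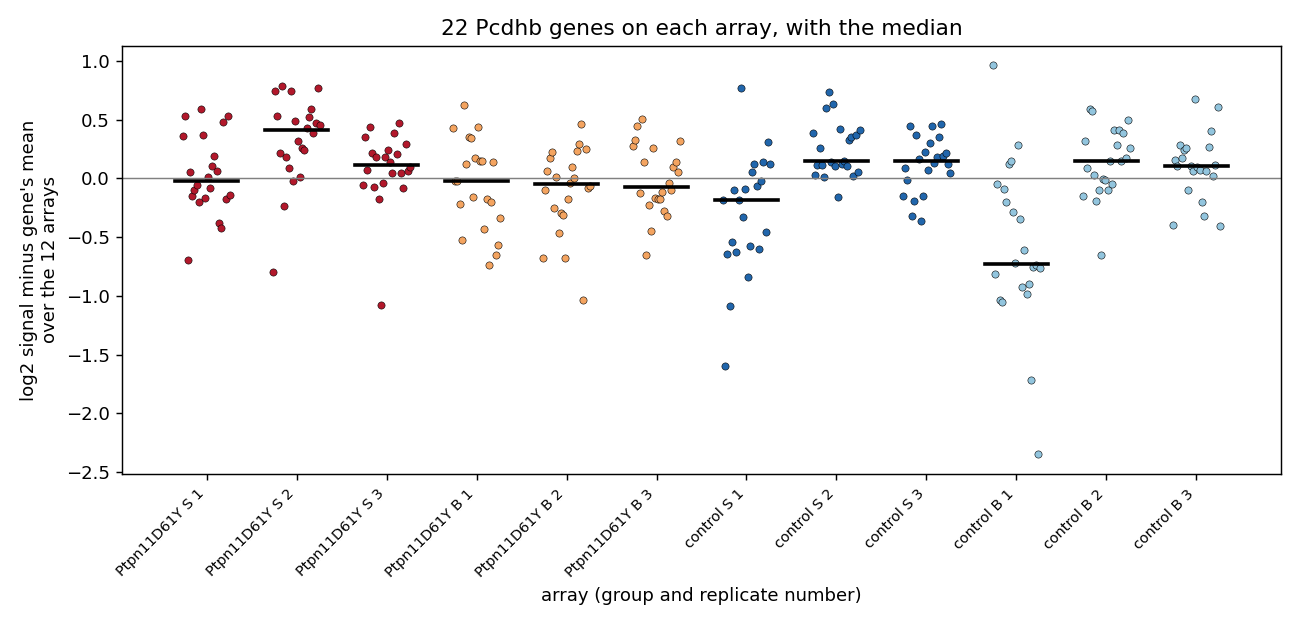
Log2 signal of each of the 22 Pcdhb genes minus its own mean over the 12 arrays (y axis), by array (x axis, group and replicate number), with black lines for the medians. The median is -0.73 on control B replicate 1 and 0.41 on Ptpn11D61Y S replicate 2.

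The correlation of the beta genes across arrays rested on the arrays numbered 1. After removal of group means, the mean pairwise correlation among the 22 genes was 0.28 over the 12 arrays, against 0.07 for all transcript clusters. Over the 8 arrays numbered 2 or 3 it was 0.05, against 0.03. These values share arrays and normalization and are given as a description.

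In Ptpn11D61Y S vs. Ptpn11D61Y B most beta genes had higher means after stimulation, and no gene passed the test. The log2 difference was above 0 in 19 of 22 beta genes, against 46.49% of all transcript clusters, with a median of 0.22 against -0.02. None passed the filter (1.14% of all transcript clusters did), and the smallest p was that of Pcdhb15 (adjusted p = 1, limma). Without the arrays numbered 1 the difference was again above 0 in 19 of 22 genes, with a median of 0.25 against 0.05 over all transcript clusters. In that setting Pcdhb11 passed the filter (0.76, unadjusted p = 0.044, limma), with a p close to the cut. The share of all transcript clusters past the filter there is not given. With all 12 arrays, 17 of 20 regulators of promoter choice and 17 of 19 partners of the proteins, listed below, also lay above 0. Their medians were 0.06 and 0.17. Microglia markers (4 of 10) and choroid plexus markers (0 of 9) mostly did not lie above 0.

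Pcdhb15 had log2 signals of 5.81, 5.87 and 6.01 in Ptpn11D61Y S, against 5.20, 5.63 and 5.35 in Ptpn11D61Y B. All S values lay above all B values, a difference of 0.51 ± 0.26 (standard error), with a 95% interval of -0.07 to 1.08. Pcdhb2 had 4.83, 5.04 and 4.65 in Ptpn11D61Y S, against 4.27, 4.20 and 4.62 in Ptpn11D61Y B, and Pcdhb21 was separated in the same way. These 3 genes were the beta genes whose groups did not overlap, all higher in S, while 1.59% of all transcript clusters had groups that did not overlap with S higher, and 4.72% in either direction. The genes with lower means in S were Pcdhb6 (-0.30 ± 0.22), Pcdhb3 (-0.20 ± 0.34) and Pcdhb1 (-0.17 ± 0.46).

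In control S vs. control B the beta genes were split, and their median depended on control B replicate 1. The log2 difference was above 0 in 15 of 22 beta genes, with a median of 0.15, against 41.28% and -0.10 for all transcript clusters. Without control B replicate 1 the median was -0.09, and without the 4 arrays numbered 1 it was 0.05, with 12 of 22 genes above 0. Pcdhb14 was the only beta gene past the filter, while 3.17% of all transcript clusters passed.

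Pcdhb14 had log2 signals of 6.09, 6.15 and 6.48 in control S, against 5.11, 5.99 and 5.83 in control B. All S values lay above all B values, which held for 2.03% of all transcript clusters, and 10.2% did not overlap in either direction. The difference was 0.60 ± 0.24, a fold change of 1.51 (adjusted p = 0.912, limma), and its fold stood close to the 1.5 of the filter. Control B replicate 1 was the lowest of the 12 arrays for this gene, and without it the difference was 0.33 and did not pass. In Ptpn11D61Y slices the same gene had 6.14, 6.29 and 6.08 in S, against 6.18, 6.13 and 5.92 in B, and the interaction of genotype and stimulation was -0.51 ± 0.34 (adjusted p = 1, limma).

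**Figure D3:**
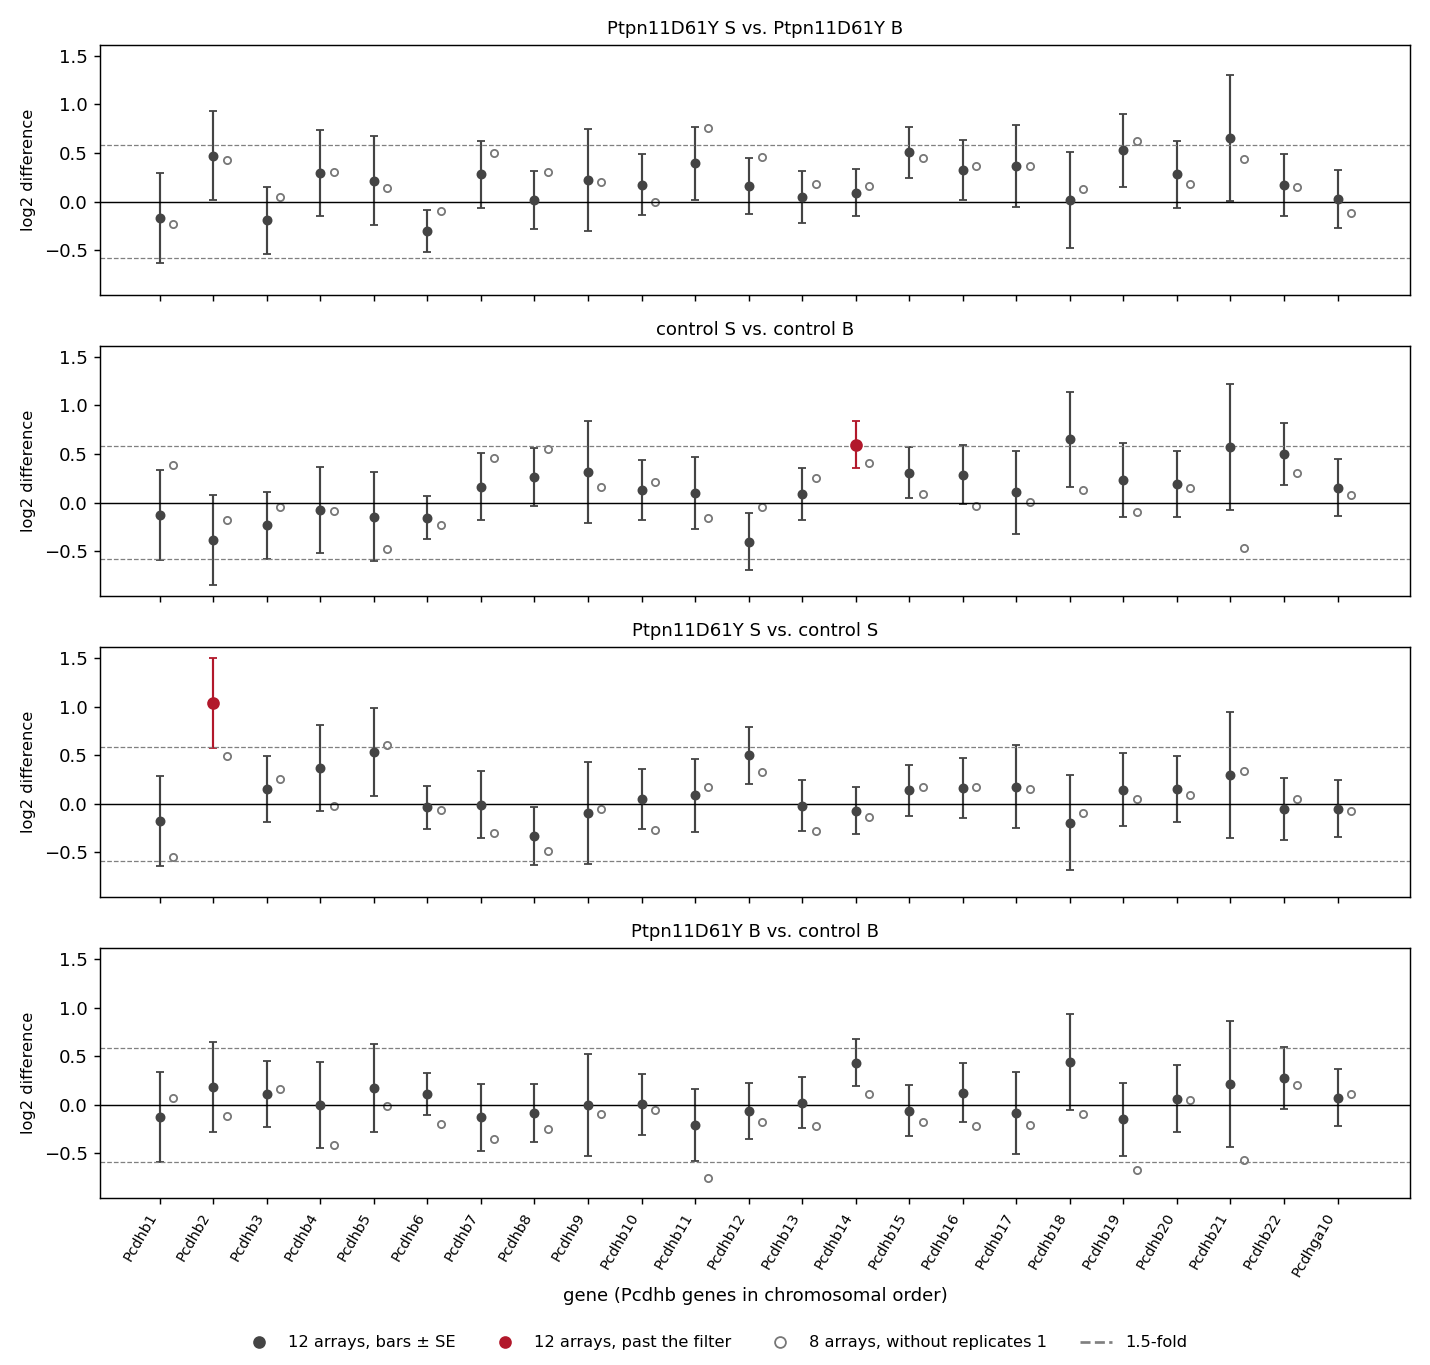
Log2 difference (y axis) of each clustered protocadherin gene (x axis) in 4 comparisons, with filled points and bars for the fit on 12 arrays ± standard error, open points for the 8 arrays without replicates 1, and dashed lines at a fold change of 1.5. Red points are Pcdhb14 in control S vs. control B (0.60) and Pcdhb2 in Ptpn11D61Y S vs. control S (1.04).

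Within animals, S exceeded B for the median beta gene in each of the 6. The median S minus B difference was 0.22, 0.26 and 0.10 in Ptpn11D61Y animals 1 to 3 and 0.29, 0.08 and 0.10 in control animals 1 to 3. Over all transcript clusters the medians were -0.17, 0.04 and 0.07 in Ptpn11D61Y and -0.30, 0.06 and -0.05 in control animals. The number of beta genes above 0 was 12, 21 and 14 of 22 in the Ptpn11D61Y animals and 12, 12 and 13 in the control animals. Of all transcript clusters, 34.02%, 54.46% and 55.91% lay above 0 in the Ptpn11D61Y animals and 38.67%, 57.76% and 43.75% in the control animals. In control animal 2 and Ptpn11D61Y animal 3 the beta median was thus close to that of all transcript clusters. The widest majority was that of Ptpn11D61Y animal 2. That animal includes Ptpn11D61Y S replicate 2, where the median beta gene lay 0.41 above its own mean. Control animal 1, with the largest median, includes control B replicate 1, where the median beta gene lay 0.73 below its own mean.

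Pcdhb20 was the only beta gene higher in S in all 6 animals, as were 3.379% of all transcript clusters. Its S minus B differences were 0.48, 0.22 and 0.15 in Ptpn11D61Y animals and 0.29, 0.19 and 0.10 in control animals. Higher values in all 3 animals of a genotype were seen for 7 beta genes in Ptpn11D61Y (11.02% of all transcript clusters) and for 4 in control (13.04%). Lower values in all 3 animals were seen for 1 beta gene in Ptpn11D61Y (13.58%) and for 3 in control (15.83%). Pcdhb20 was picked out after its values were seen.

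**Figure D4:**
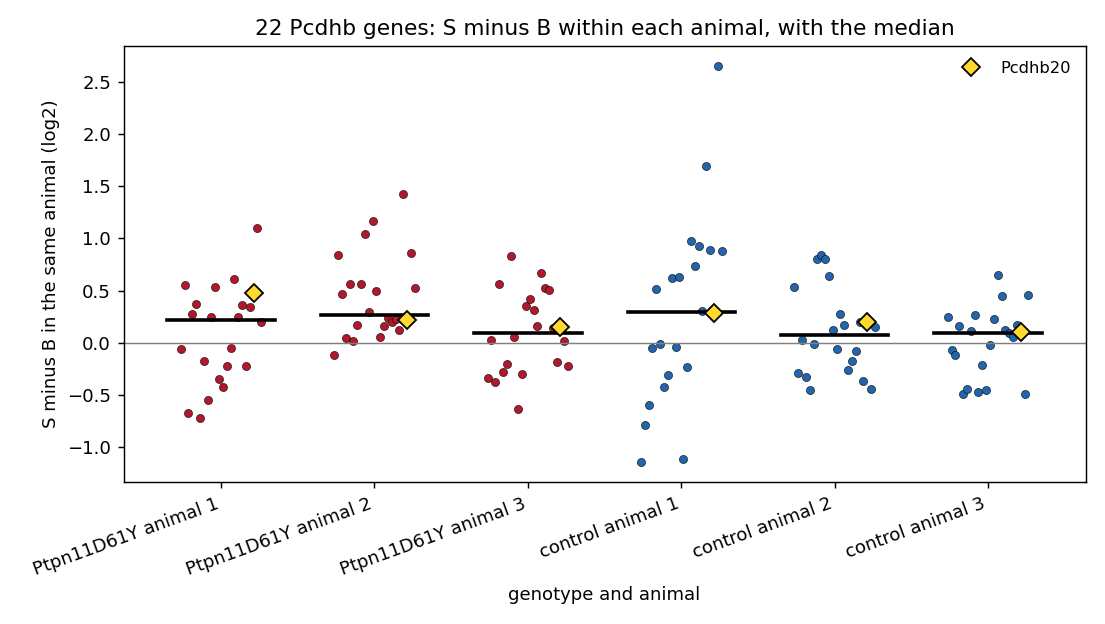
Log2 signal in S minus that in B of the same animal (y axis) for the 22 Pcdhb genes, by genotype and animal (x axis), with black lines for the medians and diamonds for Pcdhb20. Each median is above 0, from 0.08 in control animal 2 to 0.29 in control animal 1.

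Along the chromosome, the later genes of the beta row had the larger median in control slices. The last 11 genes (Pcdhb12 to Pcdhb22) had a median of 0.29 in control S vs. control B, with 10 above 0, and the first 11 a median of -0.07, with 5 above 0. In Ptpn11D61Y S vs. Ptpn11D61Y B the medians were 0.28 with 11 above 0 and 0.22 with 8 above 0. Without the arrays numbered 1 the control medians were 0.09 and -0.05, with 7 and 5 above 0. Most of the last 11 genes, but few of the first 11, had a mean log2 signal of at least 5. Most of the beta genes lowest on control B replicate 1 were also among the last 11. Position in the row thus goes together with signal level and with that array. The split of the row was made after the values were seen, and the difference between its parts was not tested.

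Between genotypes after stimulation, Pcdhb2 was the only beta gene past the filter. In Ptpn11D61Y S vs. control S the difference was above 0 in 13 of 22 beta genes, with a median of 0.11, against 58.57% and 0.06 for all transcript clusters, 1.83% of which passed. Without the arrays numbered 1 it was above 0 in 12 of 22 beta genes, with a median of 0.05 against -0.001 over all transcript clusters. Pcdhb2 had log2 signals of 4.83, 5.04 and 4.65 in Ptpn11D61Y S, against 2.70, 4.33 and 4.38 in control S. The groups did not overlap, and control S replicate 1 was far below the other control values. The difference was 1.04 ± 0.46, a fold change of 2.05 (adjusted p = 1, limma), and without control S replicate 1 it was 0.48 and did not pass. Pcdhb15 was the other beta gene whose groups did not overlap (0.14 ± 0.26). Both were higher in Ptpn11D61Y S, against 4.76% of all transcript clusters, and 6.19% did not overlap in either direction.

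In the basal state no beta gene passed the filter (1.3% of all transcript clusters did), and none had groups that did not overlap (4.51%). The difference of Ptpn11D61Y B vs. control B was above 0 in 13 of 22 beta genes, with a median of 0.01. Pcdhb14 had the smallest p, with 6.18, 6.13 and 5.92 in Ptpn11D61Y B, against 5.11, 5.99 and 5.83 in control B, a difference of 0.43 ± 0.24 (adjusted p = 1, limma). Without control B replicate 1 the median over the beta genes was -0.19. Without all 4 arrays numbered 1 it was -0.18, with 5 of 22 genes above 0, and the median over all transcript clusters was -0.05. In that setting Pcdhb11 passed the filter (-0.76, unadjusted p = 0.045, limma), with a p close to the cut. This call shares its Ptpn11D61Y B arrays with that in Ptpn11D61Y S vs. Ptpn11D61Y B, and the share of all transcript clusters past the filter is not given.

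The interaction of genotype and stimulation had a median of 0.06 over the beta genes, against 0.05 over all transcript clusters, with 14 of 22 genes above 0. None passed the filter (1.17% of all transcript clusters did). The smallest p was that of Pcdhb14, given above. Without the arrays numbered 1 the median was 0.11, against 0.06 over all transcript clusters, with 16 of 22 genes above 0.

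Pcdhga10 showed no difference beyond its error. It differed by 0.03 ± 0.30 in Ptpn11D61Y S vs. Ptpn11D61Y B, 0.15 ± 0.30 in control S vs. control B, -0.05 ± 0.30 in Ptpn11D61Y S vs. control S and 0.07 ± 0.30 in Ptpn11D61Y B vs. control B. The 95% interval in Ptpn11D61Y S vs. Ptpn11D61Y B was -0.62 to 0.67, so that a change of 2-fold lay outside it and one of 1.5-fold inside. Without the arrays numbered 1 the difference in that comparison was -0.12 ± 0.12. With 1 gamma gene, the gamma and beta clusters were not compared by a test. Whether the probes of Pcdhga10 also read other gamma genes was not tested.

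In all, 2 of the 115 tests of members passed the filter, against 1.72% of the tests of all transcript clusters in the 5 comparisons, and 21 of the 23 members passed in no comparison. The precision sets what could be seen. The 95% interval of the difference lay wholly within a 2-fold change in either direction for 9 of 22 beta genes in Ptpn11D61Y S vs. Ptpn11D61Y B, 10 in control S vs. control B, 13 in Ptpn11D61Y S vs. control S and 14 in Ptpn11D61Y B vs. control B. For the other genes a change of 2-fold was not excluded by the interval.

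Regulators of protocadherin promoter choice did not pass the filter in any comparison (0 of 20 measured, with 1.14% to 3.17% of all transcript clusters past it). Ctcf, the insulator protein that binds these promoters, differed by 0.10 ± 0.27 in Ptpn11D61Y S vs. Ptpn11D61Y B and by 0.06 ± 0.27 in control S vs. control B. Rad21, a cohesin subunit, differed by 0.03 ± 0.33 in each. Smchd1, a chromatin protein that represses the clusters, differed by 0.11 ± 0.20 in Ptpn11D61Y S vs. Ptpn11D61Y B and by 0.38 ± 0.20 in control S vs. control B, where it was 0.18 without the arrays numbered 1. Dnmt3b, a DNA methyltransferase that methylates their promoters, differed by -0.17 ± 0.44 and -0.49 ± 0.44 in these comparisons, and by -0.31 and 0.023 without the arrays numbered 1.

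Of 19 measured partners of the proteins, Pdcd10 alone passed the filter in control S vs. control B (0.79 ± 0.33, adjusted p = 0.912, limma), where 3.17% of all transcript clusters passed. Its log2 signals were 6.23, 6.22 and 6.47 in control S, against 5.03, 5.84 and 5.68 in control B. Control B replicate 1 was the lowest of the 12 arrays for this gene, and without the arrays numbered 1 the difference was 0.58. The 12 protocadherins outside the clusters held none past the filter in any comparison. In Ptpn11D61Y S vs. Ptpn11D61Y B their median was 0.18, with 10 of 12 above 0, and 0.33 without the arrays numbered 1. Of 23 measured chromosomal neighbours, Wdr55 passed in Ptpn11D61Y S vs. Ptpn11D61Y B (0.63 ± 0.28, adjusted p = 1, limma), with 5.40, 5.92 and 5.50 in Ptpn11D61Y S, against 4.83, 4.87 and 5.22 in Ptpn11D61Y B, in a comparison that 1.14% of all transcript clusters passed.

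Markers of neurons had medians above 0 after stimulation, as the beta genes did. Control S vs. control B showed this for other lists too. Medians there were 0.12 for astrocyte markers (8 of 11 above 0) and 0.16 for microglia markers (8 of 10). Chromosomal neighbours had 0.14 (18 of 23) and regulators 0.16 (15 of 20). Choroid plexus and meningeal fibroblast markers had medians below 0 (-0.29 and -0.11). The astrocyte and microglia medians became -0.05 and -0.002 when the arrays numbered 1 were left out. Excitatory neuron markers (11 measured) had a median of 0.31 in Ptpn11D61Y S vs. Ptpn11D61Y B and of 0.31 in control S vs. control B, with 9 and 10 above 0. Interneuron markers (13 measured) had medians of 0.24 in each, and early activity genes (19 measured) 0.19 and 0.35. Without the arrays numbered 1 the medians in Ptpn11D61Y and control slices were 0.50 and 0.32 for excitatory neuron markers, 0.38 and 0.18 for interneuron markers and 0.43 and 0.25 for early activity genes. The Ptpn11D61Y median was then the higher in each of these lists. With all 12 arrays the genotypes were nearly equal for the neuron markers, and control was higher for the early activity genes. The summed intensity of the excitatory markers ranged from 7862 to 17820 in Ptpn11D61Y S, 7694 to 17100 in Ptpn11D61Y B, 10070 to 18710 in control S and 8062 to 14590 in control B. The part of these differences in the beta differences was not tested.

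Choroid plexus RNA differed between slices. The summed intensity of 9 measured choroid plexus markers ranged from 469 to 617 in Ptpn11D61Y S, 633 to 14650 in Ptpn11D61Y B, 361 to 582 in control S and 491 to 569 in control B. Ttr, the transthyretin gene that defines this tissue, had a log2 signal of 13.01 on Ptpn11D61Y B replicate 3. On that array the median beta gene lay 0.07 below its own mean. The 10 measured oligodendrocyte markers had a median of 0.44 in Ptpn11D61Y B vs. control B, and their part in the beta differences was not tested.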

How the data were processed

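Total RNA was hybridised to Affymetrix Mouse Gene 2.0 ST arrays. The authors made a background correction, normalized by quantiles with the PLIER algorithm in Expression Console, and deposited signal intensity on a linear scale for 41345 transcript clusters, of which 1820 carry several symbols and 16004 none in the platform annotation. Intensities were floored at 1 (2.889% of values lay below) and taken to log2. Differences were fitted with limma 3.58.1 in R 4.3.3 on all 12 arrays, with 1 mean per group, a variance trend and Benjamini-Hochberg adjustment over all transcript clusters, and the code was tested on simulated data. Gene names and order follow RefSeq (assembly GRCm38.p6), and no coordinates are given, since the files name no build.

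The members and lists were chosen with earlier results of these data known. Genes named were those past the filter, the smallest p per comparison, the highest and lowest signals, past-filter genes of the related lists, and Ctcf, Rad21, Smchd1, Dnmt3b and Ptpn11. The members Pcdhb1, Pcdhb3, Pcdhb20 and Pcdhb21 fall outside this rule and were named after their values were seen. Arrays of B and S slices that the labels give 1 animal number in a genotype were taken as pairs. Their residuals correlated at 0.55, 0.39 and 0.19 in Ptpn11D61Y and 0.05, -0.01 and 0.04 in control animals. The number of arrays limits the precision.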

Additional observations from a re-analysis of the deposited data

How the results depend on the processing

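The 2 members past the filter depended on the setting. In control S vs. control B the count was 0, against 1, under the methods' one-way test with Tukey bi-weight averages, limma on the 6 arrays compared, an offset of 16, array weights, and leaving out the 4 arrays numbered 1. In Ptpn11D61Y S vs. control S it was 0, against 1, under the same settings and also with arrays centred on the median, with quantile normalization repeated and with dim transcript clusters left out. In Ptpn11D61Y S vs. Ptpn11D61Y B and in Ptpn11D61Y B vs. control B it was 1, against 0, with array weights and without the 4 arrays numbered 1. Without those 4 arrays the gene was Pcdhb11 in each, at 0.76 and -0.76. Both comparisons use the Ptpn11D61Y B arrays, so these calls are not independent. The share of all transcript clusters past the filter in these other settings is not given, and the counts are not compared with it. The beta median in control S vs. control B was 0.34 with centred arrays and 0.38 with quantile normalization repeated, against 0.15. Both settings even out the median intensity of the arrays, which was lowest on control S replicate 1 (36.5, with the highest array at 58.1). The cause was not tested.

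With each array left out in turn, the count of members past the filter ranged from 0 to 0 in Ptpn11D61Y S vs. Ptpn11D61Y B, 0 to 3 in control S vs. control B, 0 to 1 in Ptpn11D61Y S vs. control S, 0 to 1 in Ptpn11D61Y B vs. control B and 0 to 1 in the interaction. The count of 3 came without control B replicate 2 (Pcdhb14, Pcdhb15 and Pcdhb22), and 0 without control B replicate 1 or control S replicate 3. The share of all transcript clusters past the filter with an array left out is not given, so these counts are not read as results about the members. Pcdhb2 was lost without control S replicate 1 or any array of Ptpn11D61Y S. The beta median ranged from 0.14 to 0.33, -0.092 to 0.34, -0.086 to 0.17, -0.19 to 0.14 and -0.13 to 0.29 in the same order. That of the gamma gene ranged from -0.26 to 0.18, -0.09 to 0.32, -0.22 to 0.09, -0.17 to 0.36 and -0.41 to 0.12. With the animal as a random replicate block, and with the replicate number as a block, the counts were the same, with 1 member in control S vs. control B (Pcdhb14, 0.60) and 1 in Ptpn11D61Y S vs. control S (Pcdhb2, 1.04). The animal as a fixed block, possible within a genotype and for the interaction, changed no call there. No alpha median could be given.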
